A study of Homo sapiens with 6 samples.

Results

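Aminoacyl-tRNA synthetases, the enzymes that load each amino acid onto its transfer RNA, were followed in HK2 cells with and without overexpression of NR3C2, together with the scaffold proteins that hold several of them in a complex. The genes were picked by name: the synthetase genes of the cytosol and of mitochondria, and the scaffold genes AIMP1, AIMP2 and EEF1E1. The enzymes for aspartate are not analysed here, and TARS3, a further threonine enzyme, was counted with the other charging genes. Current and older symbols were matched to the gene identifiers of the expression table. All 38 were found among its 37202 genes, as 19 cytosolic enzymes, 16 mitochondrial enzymes and 3 scaffold genes.

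HK2 is an immortalized human line derived from the proximal tubule of the kidney, and NR3C2 encodes the mineralocorticoid receptor, a steroid-activated transcription factor. RNA came from 3 NR3C2-OE libraries, made from cells that received an NR3C2-overexpressing plasmid by lipid-mediated transfection, and from 3 Control libraries, whose labels give the genotype as normal and do not say what the cells received. Both groups are of the same line in the same serum-containing medium, and neither a receptor ligand nor a harvest time is given. Nothing in the labels says that the libraries of a group came from separate cultures, so a p-value here reflects the scatter among the libraries at hand, and that scatter could be technical alone.

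Each synthetase first activates its amino acid with ATP and then joins it to the matching transfer RNA, and the ribosome depends on this step for every codon. Most amino acids have separate nuclear genes for the cytosolic and the mitochondrial enzyme. KARS1 and GARS1 each supply both compartments, and EPRS1 carries the glutamate and proline activities in a single chain. In animals several cytosolic enzymes sit in a multisynthetase complex organized by AIMP1, AIMP2 and EEF1E1. When amino acids run short or the endoplasmic reticulum is stressed, the transcription factor ATF4 induces many cytosolic synthetase genes through a short composite element that it binds together with C/EBP proteins.

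The starts of these genes carry that element more often on the cytosolic side, and the matches are shown because they divide the enzymes by sequence rather than by expression. RefSeq promoter windows on GRCh38.p14, from 250 bases before to 50 bases after an annotated start, were matched by symbol for 33 of the 38 genes. No window was used for VARS2, AARS2, YARS1, VARS1 or LARS1. The letters TGATGNAA, searched on both strands, occurred in 7 of 16 cytosolic genes (43.8%), in 1 of 14 mitochondrial genes (7.14%) and in 0 of 3 scaffold genes. Over the 27305 genes with a window the share was 4.46%. The stricter TGATGCAA was in 6 of the 16 cytosolic genes and in 1.08% of all genes, and the 2 patterns overlap because every TGATGCAA is also a TGATGNAA. A match is a run of letters and not a measured binding site. The matches are printed below in 30 bases each, 5′ to 3′ on the strand of the gene, with the element in capitals (TTGCATCA is TGATGCAA read on the opposite strand).
AARS1 (chr16:70289675-70289704, minus strand): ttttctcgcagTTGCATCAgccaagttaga
CARS1 (chr11:3057407-3057436, minus strand): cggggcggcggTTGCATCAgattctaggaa
GARS1 (chr7:30594834-30594863, plus strand): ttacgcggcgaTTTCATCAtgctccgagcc
IARS1 (chr9:92293692-92293721, minus strand): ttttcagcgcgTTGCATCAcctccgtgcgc
MARS1 (chr12:57488053-57488082, plus strand): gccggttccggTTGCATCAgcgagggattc
NARS1 (chr18:57621804-57621833, minus strand): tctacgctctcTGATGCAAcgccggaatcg
TARS1 (chr5:33440956-33440985, plus strand): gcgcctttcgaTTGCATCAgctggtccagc
YARS2 (chr12:32756076-32756105, minus strand): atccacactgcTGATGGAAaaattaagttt
YARS2 is the only mitochondrial enzyme in this list.

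Library depth was 77737375 to 90395149 estimated counts in NR3C2-OE and 91956680 to 132533971 in Control. NR3C2 itself (ENSG00000151623) was listed at 12.1, 6.95 and 7.41 FPKM in the NR3C2-OE libraries, against 5.97, 6.26 and 5.16 FPKM in the Control libraries, where FPKM is fragments per kilobase of transcript, scaled to library size. Every NR3C2-OE library was above every Control library, and the log2 fold change of 0.68 (SE 0.23) had an unadjusted p of 0.0253 and an adjusted p of 0.486 by edgeR. Of the 5 epithelial markers, 4 averaged at least 1 FPKM, with CDH1 near 0, and their summed level was 417 to 454 FPKM in NR3C2-OE and 418 to 433 FPKM in Control. Of the 7 proximal tubule markers present in the table, PAX8 and GGT1 reached 1 FPKM. The sum over the 7 was 196 to 211 FPKM in NR3C2-OE and 155 to 169 FPKM in Control. GGT1 was listed at 56.7, 54.0 and 51.1 FPKM in NR3C2-OE and at 16.3, 17.5 and 45.5 FPKM in Control. Its Control libraries were thus split, and the adjusted p between the groups was 0.603 by edgeR. None of 3 markers of other nephron segments reached 1 FPKM. Among 4 leukocyte and endothelial markers only CD68 did, and their sum was 23.9 to 30.6 FPKM in NR3C2-OE and 20.9 to 21.1 FPKM in Control. The part of these differences in the synthetase values was not tested. Both groups are of the same line, so the sums are levels of genes and no measure of cell types. In bulk RNA fewer expressing cells and less RNA per cell cannot be told apart.

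No synthetase or scaffold gene passed the adjusted threshold between NR3C2-OE and Control, and the fitted differences were small. The quasi-likelihood test of edgeR on the estimated counts, with Benjamini-Hochberg adjustment over 21509 tested genes, called 0 of the 37 synthetase and scaffold genes that passed the filter on low counts, against 0.0279% of all tested genes, which is 6 genes. VARS2 did not pass that filter. At an unadjusted p below 0.05 there were 2 genes higher in NR3C2-OE, CARS1 and AARS1, where 4.43% of all genes were, and 2 genes lower, FARSB and VARS1, where 4.76% were. These 4 genes are 10.8% of the 37, against 9.19% of all tested genes in either direction, which is near the background. The Wald test of DESeq2, which called 1.83% of the 17316 genes it adjusted, called 1 member, CARS1. Log2 fold changes were positive for 21 and negative for 16 of the 37, with a median of 0.01, and over all tested genes the median was 0.0007. The median size of the change regardless of sign was 0.07 on the log2 scale, against 0.09 among the 12754 genes counted at least as high as the lowest member tested.

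**Figure D1:**
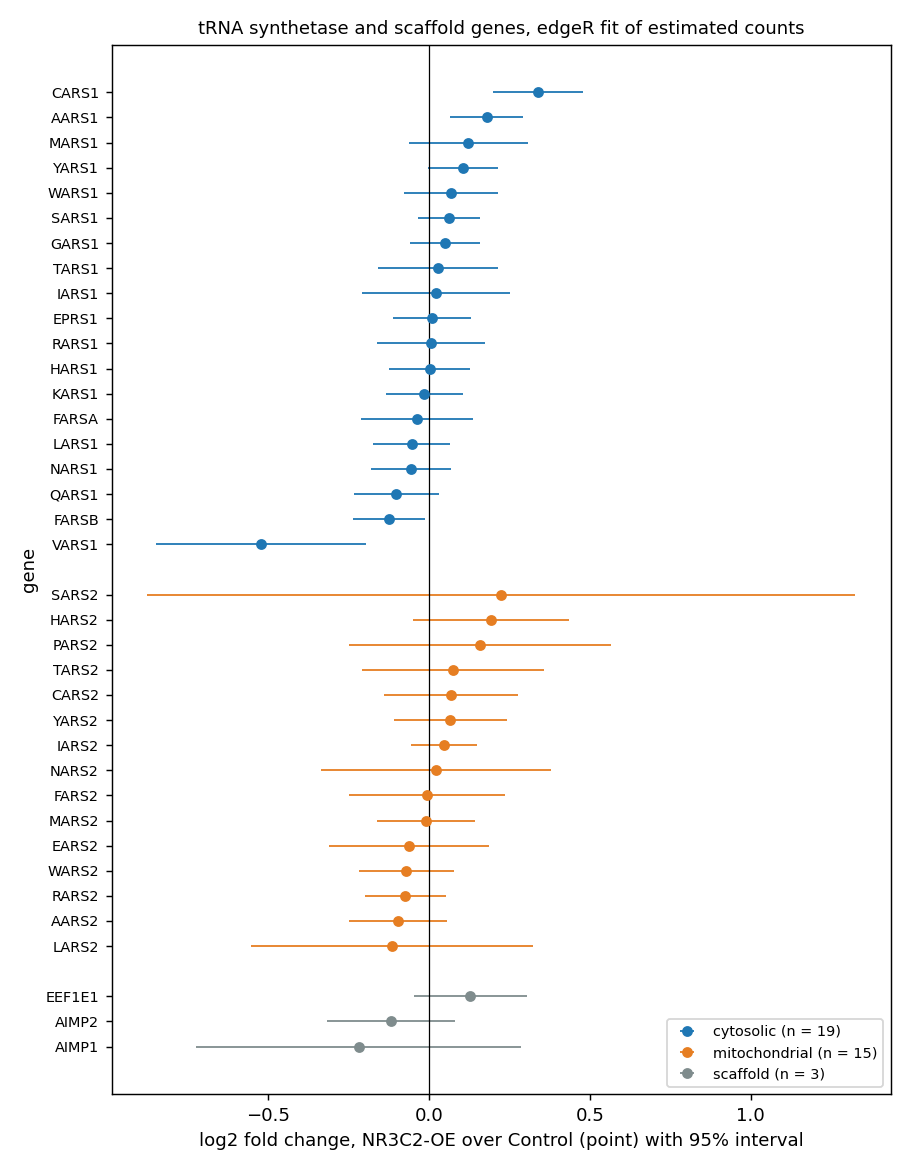
Log2 fold change of NR3C2-OE over Control for the 37 tested genes, from the edgeR fit of estimated counts; points are estimates, bars are 95% intervals, and colours mark cytosolic, mitochondrial and scaffold genes. The intervals of CARS1, AARS1, FARSB and VARS1 leave out 0, and the widest belongs to SARS2.

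The cytosolic enzymes held all 4 of these genes. Of the 19, 12 had a positive and 7 a negative log2 fold change, with a median of 0.01 and a range of -0.52 to 0.34. CPM (estimated counts relative to the TMM-scaled library total) did not overlap between the groups for 6 of the 19 (31.6%), where 16.7% of all tested genes showed this. In 4 of the 6, AARS1, CARS1, SARS1 and YARS1, the NR3C2-OE libraries were above, where 7.96% of all tested genes were. In the other 2, FARSB and VARS1, they were below, where 8.75% were. The share among the 12754 genes counted at least as high as the lowest member was 20.4%. Over all 37 tested members the groups did not overlap in CPM for 8 (21.6%), and over the 15 tested mitochondrial enzymes for 2 (13.3%).

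CARS1 (ENSG00000110619), the cytosolic enzyme for cysteine, had the largest positive value of the cytosolic enzymes. It was listed at 8.27, 10.1 and 9.46 FPKM in NR3C2-OE and at 7.28, 7.16 and 7.61 FPKM in Control, with a mean of 9.27 ± 0.91 in NR3C2-OE and 7.35 ± 0.23 in Control (SD, n = 3 each). All 3 NR3C2-OE libraries lay above all 3 Control libraries, in FPKM as in CPM, with 27.96, 28.98 and 29.48 CPM in NR3C2-OE against 22.14, 22.78 and 23.42 CPM in Control. The log2 fold change was 0.34 (SE 0.06, 95% interval 0.20 to 0.48), with an unadjusted p of 0.000913 and an adjusted p of 0.252 by edgeR. DESeq2 gave the same gene an adjusted p of 0.000466, and over all alternatives tried the adjusted p ran from 0.000466 to 0.688. An assembled locus annotated as the same enzyme, when added, moved the log2 fold change to 0.18 (unadjusted p = 0.0227 by edgeR). The element printed for CARS1 lies at its annotated start.

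AARS1 (ENSG00000090861), the cytosolic enzyme for alanine, was listed at 18.7, 19.5 and 18.6 FPKM in NR3C2-OE and at 17.2, 15.6 and 16.4 FPKM in Control. Its CPM were 90.1, 93.6 and 90.2 in NR3C2-OE and 83.2, 77.2 and 81.4 in Control. The groups were separate on both scales, and the spread within each was small. The log2 fold change was 0.18 (SE 0.05, 95% interval 0.07 to 0.29), with an unadjusted p of 0.00821 and an adjusted p of 0.380 by edgeR.

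FARSB (ENSG00000116120) encodes the beta subunit of the cytosolic phenylalanine enzyme, which works as a tetramer with the alpha subunit FARSA. FARSB was listed at 7.67, 7.87 and 7.47 FPKM in NR3C2-OE and at 8.01, 8.44 and 8.44 FPKM in Control, with CPM of 62.2, 62.7 and 59.9 in NR3C2-OE against 65.0, 68.0 and 68.2 in Control. Each NR3C2-OE library was below each Control library, by a narrow margin. The log2 fold change was -0.12 (SE 0.05, 95% interval -0.23 to -0.01), with an unadjusted p of 0.0369 and an adjusted p of 0.511 by edgeR. FARSA, the partner subunit, had overlapping groups and a log2 fold change of -0.04 (SE 0.07, unadjusted p = 0.632 by edgeR). The unadjusted p of FARSB ran from 0.0366 to 0.112 when single libraries were left out.

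VARS1 (ENSG00000204394), the cytosolic enzyme for valine, had the lowest level and the largest negative value of the 19. It was listed at 0.524, 0.829 and 0.762 FPKM in NR3C2-OE and at 0.864, 2.28 and 0.895 FPKM in Control. Its CPM were 2.40, 3.08 and 2.87 in NR3C2-OE and 4.12, 4.22 and 3.66 in Control. The groups did not overlap on either scale, but Control library 2 stood apart in FPKM alone, and the count behind 1 FPKM of this gene varied 2.60-fold between libraries. The log2 fold change was -0.52 (SE 0.13, 95% interval -0.85 to -0.20), with an unadjusted p of 0.00742 and an adjusted p of 0.365 by edgeR. This value covers the counts under the gene's own identifier, and a further locus described with the assembled loci moved it to -0.24.

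**Figure D2:**
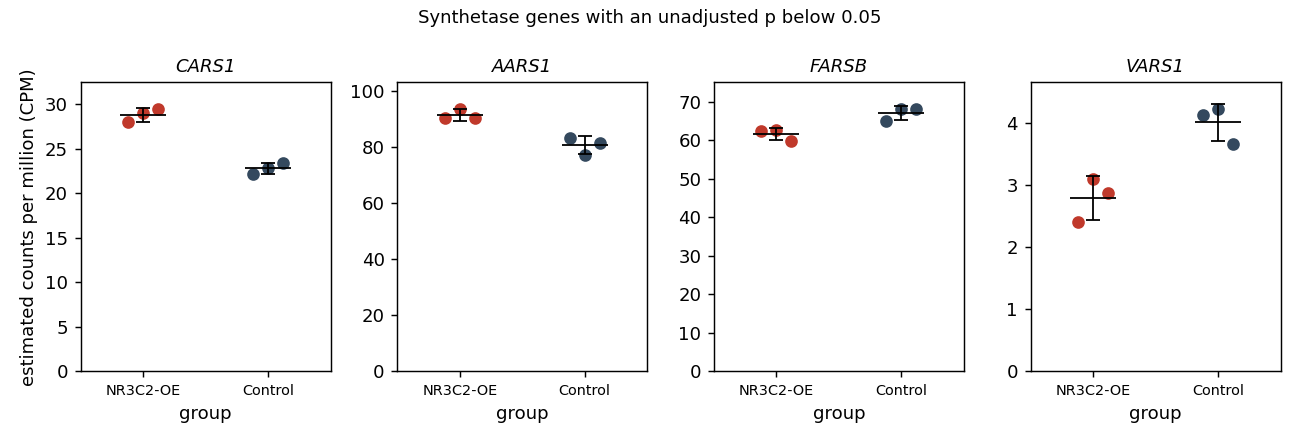
Estimated counts as CPM of CARS1, AARS1, FARSB and VARS1 in each library, NR3C2-OE left of Control; points are libraries, long bars are means and short bars 1 SD, with 3 libraries a group and all axes starting at 0. The groups do not overlap in any of the 4 panels, with NR3C2-OE above Control for CARS1 and AARS1 and below it for FARSB and VARS1.

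The other cytosolic enzymes spanned a narrower range. TARS1, for threonine, was the most abundant, at 89.1, 94.3 and 93.1 FPKM in NR3C2-OE and 86.1, 93.6 and 88.4 FPKM in Control. The groups overlapped, and the log2 fold change was 0.03 (SE 0.08). KARS1, for lysine, followed at a mean of 86.7 FPKM and NARS1, for asparagine, at 80.6 FPKM over the 6 libraries, and neighbours in this order had ranges that overlapped. YARS1, for tyrosine, had 53.6 ± 0.90 FPKM in NR3C2-OE and 49.6 ± 0.95 FPKM in Control (SD, n = 3 each), with a log2 fold change of 0.11 and an unadjusted p of 0.0516 by edgeR. SARS1, for serine, had 62.6 ± 0.86 FPKM in NR3C2-OE and 59.4 ± 0.81 FPKM in Control (SD, n = 3 each), with a log2 fold change of 0.06 and an unadjusted p of 0.163 by edgeR. Both had non-overlapping groups without passing a threshold. For GARS1, the glycine enzyme, WARS1, the tryptophan enzyme, and NARS1 the groups were apart in FPKM but overlapped in CPM. In FPKM the groups did not overlap for 12 members, with NR3C2-OE higher for 9, where 9.38% of all tested genes were, and lower for 3, where 6.65% were.

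Grouping the cytosolic enzymes by what is known of them gave small differences. The 10 genes of the multisynthetase complex tested here, scaffolds included, were divided into 5 positive and 5 negative values with a median of -0.003, and none had groups that did not overlap in CPM. The 12 cytosolic enzymes outside the complex had 8 positive and 4 negative values with a median of 0.04, and they held all 6 cytosolic genes whose groups did not overlap, where the share over all tested genes was 16.7%. The difference between these lists was not tested. Synthetase genes known to be induced by ATF4 numbered 13, of which 10 were positive, 3 negative and none called. Their median was 0.05, and so was the median standard error. Positive values made up 76.9% of this list, 63.2% of the cytosolic enzymes and 50.2% of all tested genes, and the difference was not tested. The 6 cytosolic enzymes outside that list had 2 positive and 4 negative values and a median of -0.03. Among cytosolic genes with a promoter window, the 7 that hold TGATGNAA had 6 positive values and 1 negative, with a median of 0.05, and the 9 without it had 5 positive and 4 negative, with a median of 0.002. The element was in 7 of the 10 genes of the ATF4 list that have a window, so these groupings are not independent of each other. The 2 structural classes of synthetase were read with the mitochondrial enzymes included. Class I had 9 positive and 8 negative values among 17 tested genes, and class II 10 and 6 among 16.

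Of the 15 mitochondrial enzymes tested, 8 had a positive and 7 a negative log2 fold change, with a median of 0.02 and a range of -0.11 to 0.22, and none had an unadjusted p below 0.05. Their standard errors were larger than those of the cytosolic enzymes, with a median of 0.10 against 0.05. IARS2, for isoleucine, was the most abundant, at 67.4, 65.7 and 64.8 FPKM in NR3C2-OE and at 63.5, 61.4 and 64.2 FPKM in Control. All NR3C2-OE libraries were above the Control libraries in FPKM, but the groups overlapped in CPM, and the log2 fold change was 0.05 (SE 0.04, unadjusted p = 0.311 by edgeR). HARS2, for histidine, averaged 18.6 ± 0.41 FPKM in NR3C2-OE and 16.3 ± 1.89 FPKM in Control (SD, n = 3 each), with groups that did not overlap. Its log2 fold change was 0.19 (SE 0.10, unadjusted p = 0.1 by edgeR), and Control library 3, at 14.2 FPKM, was the lowest. The value was 0.09 without Control library 3 and 0.28 without Control library 2. The annotation has ZMAT2, with a mean of 7122 estimated counts, overlapping HARS2 on the same strand. AARS2, for alanine, had CPM of 33.4 to 34.4 in NR3C2-OE and 34.8 to 39.0 in Control, with a log2 fold change of -0.10 (SE 0.06, unadjusted p = 0.179 by edgeR).

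SARS2, for mitochondrial serine, had the largest standard error of the 37 members tested. It was listed at 5.36, 3.95 and 6.94 FPKM in NR3C2-OE and at 4.95, 2.80 and 5.44 FPKM in Control. Library 2 was the lowest in both groups, and the log2 fold change was 0.22 with an SE of 0.46, turning to -0.07 with the assembled locus added. LARS2, for leucine, was lowest in library 3 of both groups, with 24.7 CPM in NR3C2-OE and 26.5 CPM in Control where the other 4 libraries had 34.1 to 37.4 CPM. VARS2, the mitochondrial valine enzyme, was listed at 0 FPKM in NR3C2-OE libraries 1, 2 and 3 and in Control library 1, and at 0.000109 and 0.0153 FPKM in Control libraries 2 and 3. A pair of assembled loci carries the annotation of this enzyme.

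HARS1 and HARS2 are neighbours read in opposite directions, and the letters between their RefSeq starts are shown because a single stretch lies upstream of the histidine enzymes of both compartments. The 84 bases at chr5:140691371-140691454 on the plus strand of GRCh38.p14 are 59.5% G or C.
HARS1-HARS2 interval: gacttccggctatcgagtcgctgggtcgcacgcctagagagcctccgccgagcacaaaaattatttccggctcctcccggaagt
HARS1 was listed at 21.2, 21.1 and 20.7 FPKM in NR3C2-OE and at 18.7, 21.5 and 22.2 FPKM in Control, so that its groups overlapped, unlike those of HARS2. The log2 fold change of HARS1 was 0.002 (SE 0.05). The counting strand is not given in the sources used here, and GENCODE 29, unlike the RefSeq starts used for this interval, has the 2 genes overlapping at their starts on opposite strands. Reads from that overlap cannot be assigned to one of them for certain.

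The 3 scaffold genes had 1 positive and 2 negative log2 fold changes. EEF1E1, the smallest scaffold protein, was the most abundant, at 43.4, 40.9 and 43.0 FPKM in NR3C2-OE and 35.8, 37.8 and 40.7 FPKM in Control. The groups were apart in FPKM and overlapped in CPM, and the log2 fold change was 0.13 (SE 0.07, unadjusted p = 0.121 by edgeR). AIMP2, which bridges the complex, averaged 29.6 ± 1.70 FPKM in NR3C2-OE and 31.9 ± 2.51 FPKM in Control (SD, n = 3 each), with a log2 fold change of -0.12 (SE 0.08). AIMP1, whose C-terminal fragment is released as a cytokine, was the lowest, at 14.94, 13.06 and 14.37 FPKM in NR3C2-OE and 14.83, 14.93 and 16.01 FPKM in Control. Its groups overlapped, and the log2 fold change of -0.22 had an SE of 0.21. Single libraries moved this value: it was -0.47 without NR3C2-OE library 1 (unadjusted p = 0.0165, adjusted p = 0.565 by edgeR), -0.13 without NR3C2-OE library 2, -0.08 without NR3C2-OE library 3 and -0.09 without Control library 3. In CPM it varied more, from 43.3 to 71.3 in NR3C2-OE and from 54.5 to 72.9 in Control.

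Some synthetase counts stood outside the named genes. Besides Ensembl genes the table lists 736 loci named only during assembly, and for 6 of these its own protein annotation gives a human synthetase of the set as the best match. The enzymes named are those of CARS1, IARS1, VARS1, SARS2 and, with 2 loci, VARS2. This annotation is the only link used here, and whether the loci are parts of these genes was not tested, so each sum holds only if they are. The locus annotated as CARS1 held 38.01% of the summed CARS1 counts in NR3C2-OE and 44.63% in Control. For IARS1 the share was 41.5% in NR3C2-OE and 38.8% in Control, for VARS1 46.1% in NR3C2-OE and 36.0% in Control, and for SARS2 78.7% in NR3C2-OE and 82.5% in Control. For VARS2 the 2 loci held 100% of the counts in NR3C2-OE and 99.8% in Control. The FPKM of these 5 genes given here cover their own identifiers only and leave out these loci, whose own FPKM were much higher. Over the 6 libraries the locus annotated as CARS1 averaged 279 FPKM and the gene 8.31 FPKM, and the locus annotated as IARS1 averaged 1196 FPKM and the gene 42.6 FPKM. The locus annotated as SARS2 averaged 253 FPKM and the gene 4.91 FPKM, and the locus annotated as VARS1 averaged 27.1 FPKM and the gene 1.03 FPKM. The loci thus had fewer or a similar number of counts at a far higher level per length, except for SARS2 and VARS2, where they had more counts as well. The 2 loci annotated as VARS2 averaged 34.6 and 29.8 FPKM.

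Adding these loci moved the values of the genes that carry them. The summed CARS1 counts were 44.8, 49.0 and 45.8 CPM in NR3C2-OE and 41.0, 39.4 and 42.8 CPM in Control. The groups still did not overlap, and the log2 fold change was 0.18 (SE 0.06, unadjusted p = 0.0227, adjusted p = 0.481 by edgeR), while the locus alone had -0.04 (SE 0.11). Summed VARS1 counts were 4.86, 5.61 and 5.07 CPM in NR3C2-OE and 5.79, 5.81 and 6.73 CPM in Control, again with no overlap and with a log2 fold change of -0.24 (SE 0.11, unadjusted p = 0.0702 by edgeR). For IARS1 the sum, unlike the gene alone, had groups that did not overlap, with a log2 fold change of 0.07 (SE 0.04, unadjusted p = 0.116 by edgeR). SARS2 turned from 0.22 for the gene alone to -0.07 (SE 0.09) for the sum, and its spread was much smaller. The summed VARS2 counts were 3.75, 5.83 and 4.22 CPM in NR3C2-OE and 5.82, 4.47 and 4.53 CPM in Control, with overlapping groups and a log2 fold change of -0.10 (SE 0.20). This sum was chosen after the values were seen.

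**Figure D3:**
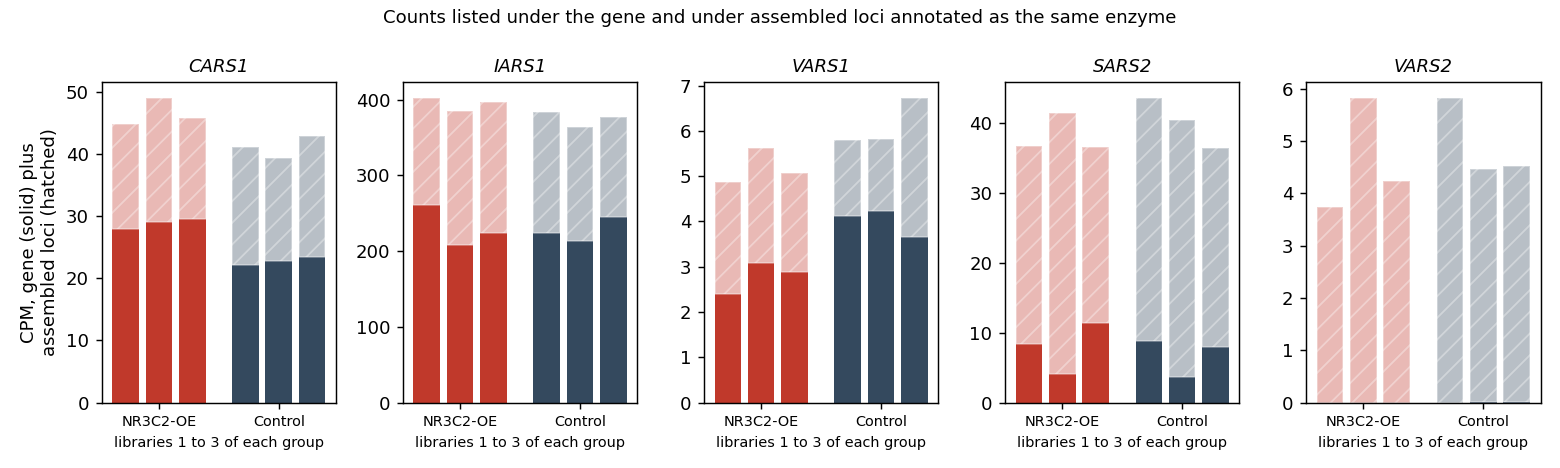
Estimated counts as CPM listed under 5 synthetase genes (solid) and under assembled loci annotated as the same enzyme (hatched), for libraries 1 to 3 of NR3C2-OE on the left and of Control on the right of each panel. The loci hold most of the SARS2 counts and 99.8% or more of the VARS2 counts, and the summed bars of CARS1 do not overlap, NR3C2-OE being higher.

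Cytosolic enzymes were listed at higher levels per length than mitochondrial ones. The mean FPKM over the 6 libraries had a median of 43.4 across the 19 cytosolic genes (range 1.03 to 90.8), 6.14 across the 16 mitochondrial genes (range 0.00256 to 64.5) and 30.8 across the 3 scaffold genes. At least 20 FPKM was reached by 15 cytosolic genes and by 2 mitochondrial genes, IARS2 and RARS2, the arginine enzyme. Summed FPKM of the cytosolic enzymes was 827.8, 827.4 and 839.6 in NR3C2-OE and 806.5, 813.4 and 811.0 in Control. The mitochondrial sum was 204.0, 200.3 and 202.0 FPKM in NR3C2-OE and 200.7, 196.0 and 191.6 FPKM in Control. The cytosolic sums did not overlap between the groups, while mitochondrial library 2 of NR3C2-OE lay below Control library 1. In FPKM more of all tested genes separated upward in NR3C2-OE (9.38%) than downward (6.65%), unlike in CPM (7.96% and 8.75%). On estimated counts the median log2 fold change was 0.01 for the cytosolic and 0.02 for the mitochondrial enzymes.

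Within an amino acid the same order held for most genes. Of 17 pairs of a cytosolic with a mitochondrial gene, 16 gave a ratio, VARS1 with VARS2 being left out. The cytosolic gene was the higher in 14 when each gene was taken under its own identifier. EPRS1 was paired with both EARS2 and PARS2, and FARS2 with both FARSA and FARSB, so these genes count more than once. On estimated counts the tally was also 14 for the genes alone and 16 with the assembled loci added. VARS1 to VARS2, outside this tally, had a mean log2 ratio of 0.25 with the loci, from -0.05 to 0.57 over libraries. For SARS1 to SARS2 the mean log2 ratio of counts fell from 4.25 to 1.73 when the SARS2 locus was added. The median log2 ratio of FPKM was 2.18, or 4.55-fold, and per library the median was 2.01, 2.32 and 2.29 in NR3C2-OE and 2.14, 2.14 and 2.17 in Control. The largest ratio was that of EPRS1 to PARS2, 34.8-fold on average, and the log2 ratio was 5.24, 4.86 and 5.03 in NR3C2-OE and 5.09, 4.96 and 5.54 in Control. EPRS1 was listed at 60.5, 60.6 and 64.0 FPKM in NR3C2-OE and at 57.6, 60.5 and 62.4 FPKM in Control. PARS2, for mitochondrial proline, was listed at 1.60, 2.09 and 1.95 FPKM in NR3C2-OE and 1.70, 1.94 and 1.34 FPKM in Control. Both genes had overlapping groups.

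Under the genes' own identifiers the order was the other way round for cysteine and isoleucine. On estimated counts it turned when the assembled loci were added. The mean log2 ratio of CARS1 to CARS2 was further below 0 in FPKM, at -0.97, than on counts. Whether the order would turn per length was not tested. CARS1 stood at 0.510-fold of CARS2, and the log2 ratio was -0.95, -0.69 and -0.85 in NR3C2-OE and -1.29, -1.23 and -0.83 in Control. CARS2 was listed at 15.95, 16.21 and 17.11 FPKM in NR3C2-OE and at 17.76, 16.78 and 13.53 FPKM in Control. Control library 3, with the least CARS2, was the Control library whose ratio reached those of NR3C2-OE. IARS1 stood at 0.659-fold of IARS2. In both of these pairs an assembled locus carries the annotation of the cytosolic enzyme, and the FPKM ratio leaves it out. On estimated counts, which are not scaled to length, the mean log2 ratio of CARS1 to CARS2 was -0.19 for the genes alone and 0.58 with the locus added, with a range over libraries of 0.39 to 0.76. For IARS1 to IARS2 it was -0.25 alone and 0.50 with the locus (range 0.46 to 0.55). The groups did not overlap in the log2 ratio for 2 of the 16 pairs, AARS1 to AARS2, at 1.69, 1.66 and 1.61 in NR3C2-OE and 1.33, 1.35 and 1.43 in Control, and WARS1 to WARS2, at 1.72, 1.70 and 1.53 in NR3C2-OE and 1.52, 1.45 and 1.48 in Control. These ratios are descriptions, and no test was made on them. Of all tested single genes, 16.7% had groups that did not overlap in CPM. No such share was computed for ratios of other gene pairs.

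**Figure D4:**
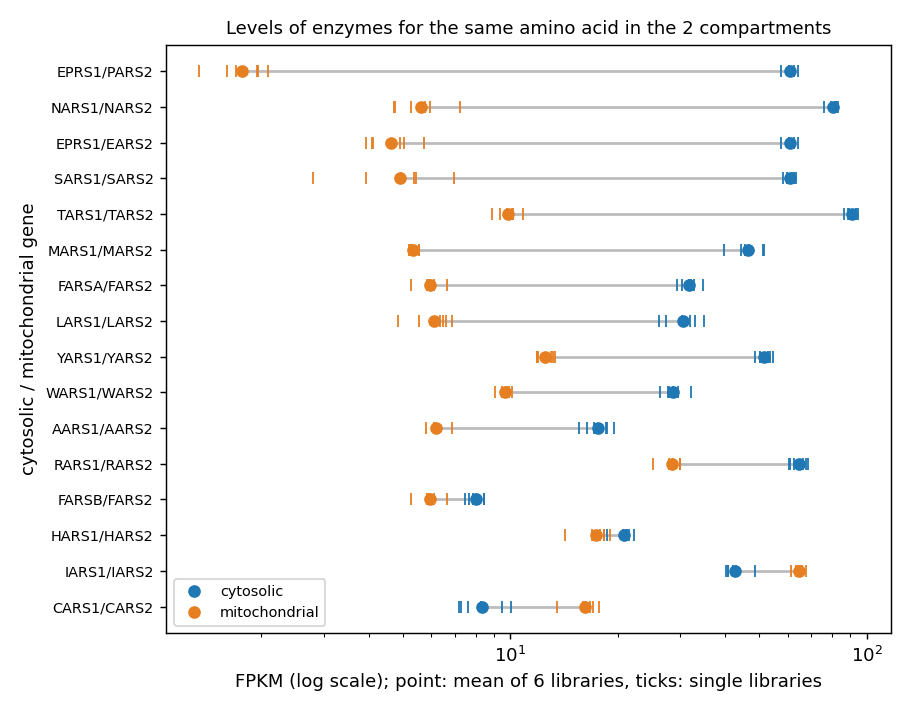
FPKM on a log axis of the cytosolic gene (blue) and the mitochondrial gene (orange) for 16 pairs; points are means of 6 libraries and ticks single libraries. The cytosolic point lies to the right in 14 pairs and to the left for CARS1 with CARS2 and IARS1 with IARS2. The FPKM are those of the genes' own identifiers, and on estimated counts both of these pairs turned when the assembled loci were added.

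Other genes around transfer RNA charging were read from the same fit, and none was called. Of 19 further genes for charging and transfer RNA maturation, 8 were positive and 11 negative, with a median of -0.03 and none at an unadjusted p below 0.05. The smallest p-values belonged to GATB, a subunit of the mitochondrial amidotransferase that makes glutaminyl-tRNA, with a log2 fold change of 0.20 (unadjusted p = 0.0666 by edgeR), and to OSGEP, which makes a modified base next to the anticodon, with -0.21 (unadjusted p = 0.0867 by edgeR). XPOT, the exporter of transfer RNA from the nucleus, had 0.08 and YRDC, which acts before OSGEP, had -0.12.

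Of 10 elongation factors, 6 were positive and 4 negative, with a median of 0.05. EEF1A1, which brings charged transfer RNA to the ribosome, was listed at 2766, 2621 and 2656 FPKM in NR3C2-OE and at 2368, 2480 and 2464 FPKM in Control. The groups did not overlap, and the log2 fold change was 0.12 (SE 0.04, unadjusted p = 0.0333, adjusted p = 0.503 by edgeR). EEF2, the translocation factor, had 0.13 (unadjusted p = 0.0536 by edgeR), EEF1D 0.07 and EEF1B2 -0.26, both subunits of the exchange factor for EEF1A1.

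Of 12 regulators and targets of the amino acid response, 7 were positive and 5 negative, with a median of 0.10. TRIB3, an ATF4-induced pseudokinase, was listed at 20.4, 22.7 and 18.4 FPKM in NR3C2-OE and at 16.9, 17.4 and 17.9 FPKM in Control. Its groups did not overlap, and the log2 fold change was 0.21 (SE 0.08, unadjusted p = 0.0409, adjusted p = 0.525 by edgeR). In CPM the margin was narrow, with NR3C2-OE library 3 at 50.47 and Control library 3 at 50.38. The unadjusted p of TRIB3 by edgeR ran from 0.00523 to 0.118 when single libraries were left out. CEBPB, a binding partner of ATF4, had 0.22 (unadjusted p = 0.0539 by edgeR), ASNS, the asparagine synthetase gene that ATF4 induces, 0.19 (unadjusted p = 0.0616 by edgeR) and EIF2AK4, the kinase that senses uncharged transfer RNA, -0.12 (unadjusted p = 0.0836 by edgeR). ATF4 itself, named after its values were seen, was listed at 37.69, 41.94 and 38.02 FPKM in NR3C2-OE and 34.25, 33.70 and 33.63 FPKM in Control. Its groups did not overlap in FPKM but did in CPM, and the log2 fold change on counts was 0.05 (SE 0.06, unadjusted p = 0.384 by edgeR).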

How the data were processed

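RNA was sequenced as strand-specific paired-end Illumina libraries, per the labels' protocols, and the submitters' processing notes name cutadapt 1.2.1, a trimmer of adapters. What aligned and counted the reads, and against which build, is not given in the sources used here. The authors deposited 1 table with, per library, an FPKM value, per the file headers, and an estimated count given as whole numbers. Low estimated counts favour multiples of 4 (8694 values of 4, against 5772 of 3 and 5504 of 5), so the totals may overstate independent fragments, and the p-values rest on the spread between libraries. The 736 loci without an Ensembl identifier held 2.88% to 2.98% of the counts and stayed in the tests.

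Estimated counts were tested with the quasi-likelihood F test of edgeR 4.0.16 (R 4.3.3), with filterByExpr and TMM scaling, with group as the only term, all 6 libraries and Benjamini-Hochberg adjustment over all tested genes. Tests are two-sided at 0.05. Standard errors come from the F statistics and 95% intervals use edgeR's 6.36 degrees of freedom. FPKM served for levels. The procedure was tested on simulated data.

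The members and gene lists were chosen with earlier results of these data known, and the list of ATF4-induced synthetases and the motif come from general knowledge of that factor. Values in every library are given for members with an unadjusted p below 0.05, for the highest and lowest of each class by mean FPKM, and for the pairs with the largest and smallest ratio. From each other list up to 4 genes with the smallest p are named. Members shown beyond this rule were chosen after their values were seen. Markers missing from the table were not used here. In the GENCODE 29 annotation 15 members overlap another protein-coding gene, 4 of them on the same strand, and CARS1, AARS1, FARSB and VARS1 do not. Alternatives were DESeq2 1.42.0, limma 3.58.1 on log2 FPKM and, with voom, on the estimated counts, and other filters and scalings. Further alternatives were a replicate block, leaving out each library, and adding the assembled loci.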

Additional observations from a re-analysis of the deposited data

How the results depend on the processing

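With 3 libraries a group the median standard error was 0.05 on the log2 scale for cytosolic and 0.10 for mitochondrial enzymes. Dividing the counts by 4 left 6 genes and 0 members called. Of 592 results for single members under alternatives, 559 kept their direction and side of the threshold, 1 passed it and 32 turned in direction, in 14 members. The one that passed was CARS1 with DESeq2.

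The count of called genes over the whole table, 6 in edgeR, was 317 with DESeq2, 11 with limma on log2(FPKM + 0.1), 0 with the replicate block and 5 to 18 with a library left out (14, 18 and 16 without NR3C2-OE library 1, 2 or 3, and 13 without Control library 2). Same-numbered libraries correlated in their deviations by 0.0266, 0.0158 and 0.0038, so the numbers were not taken as pairs. With the replicate block FARSB had an unadjusted p of 0.0821 in edgeR. Members called numbered 1 with DESeq2 and 0 to 0 with a library left out. Members higher at an unadjusted p below 0.05 numbered 4 with limma on log2(FPKM + 1) and 4 with + 0.1, and 2 to 4 with a library left out, the 4 without Control library 3. Members lower numbered 1 with the replicate block, 0 with both FPKM fits, 1 with the assembled loci added and 1 to 2 with a library left out, 1 without NR3C2-OE library 2, NR3C2-OE library 3 or Control library 3. The cause was not tested.

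Leaving out a library gave a median of -0.006 to 0.0534 for cytosolic, -0.0313 to 0.0545 for mitochondrial and -0.1552 to -0.0373 for scaffold genes, and a log2 fold change of 0.36, without NR3C2-OE library 1, to 0.84 for NR3C2. The median log2 ratio of cytosolic to mitochondrial level was 2.46 on estimated counts and 2.16 with the assembled loci added to these.

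Direction turned without a low-count filter for HARS1 (-0.0087) and RARS1 (-0.003), with FPKM + 1 and + 0.1 for EARS2 (0.0004 and 0.0017) and MARS2 (0.0117 and 0.0137), and for SARS2 with the assembled loci (-0.071). With a library left out the ranges crossed 0 for EPRS1 (-0.0238 to 0.0438), FARSA (-0.091 to 0.0329), HARS1 (-0.0376 to 0.0289), IARS1 (-0.0725 to 0.0916), KARS1 (-0.0531 to 0.0232), RARS1 (-0.0435 to 0.0627), TARS1 (-0.0316 to 0.0822), EARS2 (-0.1329 to 0.0083), FARS2 (-0.0952 to 0.0695), LARS2 (-0.2569 to 0.0265), MARS2 (-0.0276 to 0.0213), NARS2 (-0.1459 to 0.1301), SARS2 (-0.1248 to 0.5384) and TARS2 (-0.0313 to 0.1578).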
